A study of Homo sapiens with 4 samples.

Results

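The genes described here were the protein arginine methyltransferase (PRMT) genes other than PRMT3 in the count table, PRMT1, PRMT2, CARM1, PRMT5, PRMT6, PRMT7 and PRMT9, together with the PRMT5 partners WDR77 and CLNS1A and the JmjC-domain oxygenase JMJD6. They were selected by gene name, with no threshold on a measured value, and made up 10 of the 15575 genes in the table. Earlier results of these data were known when they were chosen. All 10 passed the filter on low counts, as did 13172 genes in all. RNA-seq was performed in U251, an established human glioblastoma (GBM) cell line, in 2 control libraries (Ctrl, labelled pGreen) and 2 PRMT3 knockdown libraries (PRMT3-KD). Per the paper, both groups received lentivirus, with a control short hairpin RNA in Ctrl and a hairpin against PRMT3 in PRMT3-KD. The cells were profiled after 72 h, and no further treatment was named for either group. Which of the study's hairpins was used in each PRMT3-KD library was not given in the sources used here. Nothing in the labels says that the 2 libraries of a group came from separate cultures, so the p-values below measure only the spread between these libraries. The comparison asks whether the rest of the arginine methylation machinery changed at the mRNA level when PRMT3 was depleted.

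Arginine methylation adds 1 or 2 methyl groups to the guanidino end of an arginine, with SAM (S-adenosylmethionine) as the methyl donor. The enzymes differ in their end product: PRMT7, of type III, stops at the monomethyl form, PRMT5 and PRMT9, of type II, place the second methyl group symmetrically, and the other members of the family named here, with PRMT3, are of type I and place it asymmetrically. Histones, splicing factors and other RNA-binding proteins are their best known substrates, and type I and type II enzymes can compete for the same arginines.

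The knockdown was checked first. PRMT3 had 535 and 535 reads in Ctrl 1 and Ctrl 2 and 77 and 45 in PRMT3-KD 1 and PRMT3-KD 2. Its log2 fold change was -3.08 (SE 0.314, adjusted p = 0.0177, edgeR's quasi-likelihood (QL) test, Benjamini-Hochberg adjusted over 13172 genes), so both PRMT3-KD libraries matched their label, with PRMT3 lower in the second. Library totals lay between 24804250 and 29756313 reads. The 2 Ctrl libraries were far closer to each other than the 2 PRMT3-KD libraries: chi-square per degree of freedom over genes was 1.42 for the first pair and 66.4 for the second. The glial and mesenchymal markers SOX2, VIM, CD44, NES and EGFR were high in every library, between 132 and 5399 CPM (normalised read counts per 1000000 reads). The astrocyte marker GFAP was low, at 13.1 and 14.3 CPM in Ctrl and 1.26 and 5.39 in PRMT3-KD, and CHI3L1 was at or near 0. S100B, of the same marker list, was also low, at 1.93 to 2.82 CPM over the 4 libraries. Of the markers of other cell types, the immune PTPRC and epithelial CDH1 stayed at or below 0.246 CPM and the endothelial VWF at or below 2.46, whereas the endothelial CDH5 reached 25.4 CPM in PRMT3-KD 2 against 5.05 to 5.31 elsewhere. The epithelial keratin KRT18 was 74.2 and 98.2 CPM in PRMT3-KD against 32.4 and 34.1 in Ctrl, and KRT8 was 10.8 and 13.2 against 5.38 and 5.82. The immune marker CD68 was at 24.0 to 29.7 CPM and the neuron markers SYT1 and SNAP25 at 10.03 to 14.29 and 2.746 to 4.999 CPM over the 4 libraries. The part of these differences in the results below was not tested.

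A gene passed the threshold when its adjusted p was under 0.05 and its level differed more than 1.5-fold, and 1 of the 10 did so. It was PRMT6, which was higher in PRMT3-KD. Over all genes tested, 10.9% passed, with 4.97% higher and 5.97% lower. No member passed as lower, with edgeR or with DESeq2, and 1 of the 4 members with a negative change, PRMT2, had an unadjusted p under 0.05. By the adjusted p alone, 2 of the 10 (PRMT6 and PRMT2) passed, against 17.3% of all genes. In 5 of the 10, both PRMT3-KD libraries lay above or below both Ctrl libraries, against 67.1% of all genes. The median absolute log2 fold change was 0.15 over the 10 members and 0.29 over all genes, and 7 of the 10 members moved by less than 0.25 compared with 43.4% of all genes. The share of members called was therefore near the background. The count of 1 fell to 0 without Ctrl 1 or without Ctrl 2, when edgeR called 0 of all genes tested although 1842 and 1868 genes, and 1 member each time, had an unadjusted p under 0.05.

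**Figure D1:**
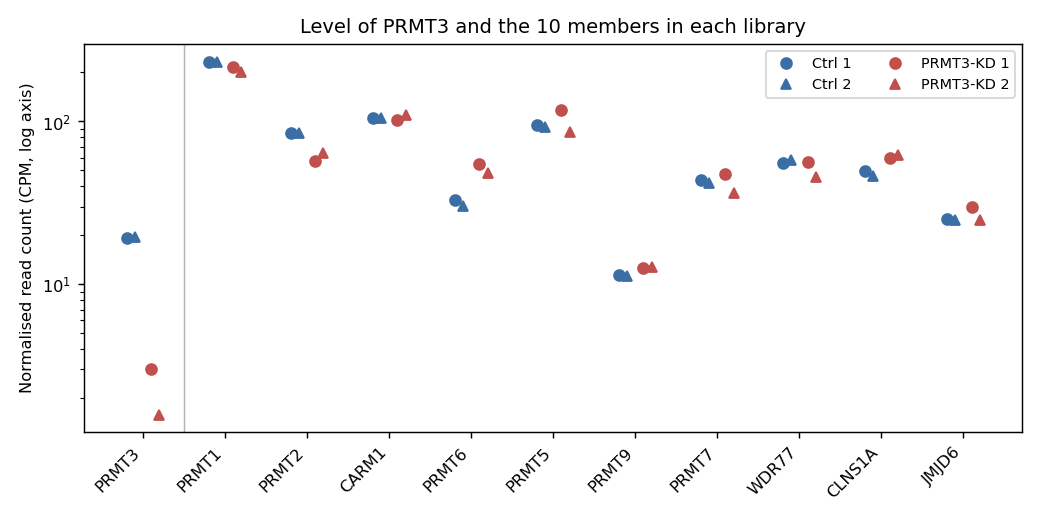
Normalised read count (CPM, log axis) of PRMT3 and the 10 members in Ctrl 1, Ctrl 2, PRMT3-KD 1 and PRMT3-KD 2, 1 point per library (circles, replicate 1; triangles, replicate 2). PRMT3 dropped from about 19.4 to 2.31 CPM on average, PRMT6 rose in both PRMT3-KD libraries, PRMT2 was lower in both, and the points of CARM1, PRMT5, PRMT7, WDR77 and JMJD6 overlapped between groups.

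The stretches of genome directly upstream of the 2 members with an adjusted p under 0.05, and of PRMT3 for comparison, are shown because these were the transcripts whose levels differed. They were read from GRCh37 (hg19, the build of the files) with GENCODE 44 lifted to that build, and run 5′ to 3′ on the gene's strand up to the base before the gene's first annotated exon. Capitals mark matches on either strand to the CCAAT box, to the E-box word CACGTG, to the GC-box word GGGCGG and to the TATA-box word TATAAA, overlapping matches included.
PRMT6, chr1:107599046-107599295, plus strand: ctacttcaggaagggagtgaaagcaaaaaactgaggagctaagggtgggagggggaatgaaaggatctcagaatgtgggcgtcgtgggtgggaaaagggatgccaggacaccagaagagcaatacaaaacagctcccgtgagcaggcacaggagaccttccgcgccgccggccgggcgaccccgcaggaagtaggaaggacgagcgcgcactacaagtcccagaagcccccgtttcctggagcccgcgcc
PRMT2, chr21:48055336-48055506, plus strand: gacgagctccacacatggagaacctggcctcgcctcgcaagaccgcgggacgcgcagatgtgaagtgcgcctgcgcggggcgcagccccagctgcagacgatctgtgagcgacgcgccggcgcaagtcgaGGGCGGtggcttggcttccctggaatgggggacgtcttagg
PRMT3, chr11:20409012-20409103, plus strand: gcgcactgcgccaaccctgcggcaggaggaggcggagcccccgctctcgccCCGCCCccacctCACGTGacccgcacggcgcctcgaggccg
Over the full 250 bases before the start of each gene's canonical transcript, PRMT6 held none of the 4 words. PRMT2 held 2 matches to the GC-box word, and PRMT3 held 2 matches to it and 1 to the E-box word. The GC-box word occurred in 58.6% of 20162 such windows, the CCAAT box in 34.1%, the TATA-box word in 9.36% and the E-box word in 7.84%. The window of PRMT6 had a GC content of 60.4% and that of PRMT2 72.0%, beside a median of 63.2% over all windows. A match or its absence describes these letters alone.

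Among the type I enzymes, PRMT6 was the member that rose. PRMT6, at chr1:107599296-107610258 on the plus strand, encodes a nuclear enzyme that methylates histone H3 at arginine 2, and its canonical transcript has 1 exon. In Ctrl it had 907 and 827 reads, and in PRMT3-KD 1386 and 1377, or 32.7, 30.1, 54.6 and 48.5 CPM. Both PRMT3-KD libraries were above both Ctrl libraries, with no overlap. The level rose 1.64-fold, a log2 fold change of 0.71 (SE 0.105, 95% interval 0.43 to 0.99, adjusted p = 0.0243, edgeR's QL test, Benjamini-Hochberg). Against the Ctrl mean, the log2 difference was 0.80 in PRMT3-KD 1 and 0.63 in PRMT3-KD 2. PRMT6 stayed past the threshold in 8 of 8 other settings of test, scaling, filter and block, with adjusted p from 0.000290 to 0.0427. Without Ctrl 1 or Ctrl 2 the adjusted p was 0.237 or 0.286 and no gene in the table passed, while the log2 fold change was 0.78 and 0.65.

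PRMT2 was the member with the largest decrease. The gene lies at chr21:48055507-48085036 on the plus strand and encodes an SH3-domain enzyme of weak methyltransferase activity that acts as a coactivator of nuclear receptors. Its counts were 2367 and 2344 in Ctrl and 1459 and 1829 in PRMT3-KD, or 85.4, 85.2, 57.4 and 64.4 CPM. The groups did not overlap, and the Ctrl libraries differed by 0.00358 on the log2 scale against 0.165 between the PRMT3-KD libraries. The log2 fold change was -0.49 (SE 0.0885, 95% interval -0.72 to -0.25, adjusted p = 0.0349 in edgeR's QL test, Benjamini-Hochberg), a level 1.40-fold lower, which was under the 1.5-fold threshold. With the replicate number as a block its adjusted p was 0.0539, and without Ctrl 1 or Ctrl 2 it was 0.375 or 0.366.

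PRMT1, the main source of asymmetric dimethylarginine in most cells, was the most abundant member per length in every library. Its counts were 6380 and 6410 in Ctrl and 5504 and 5682 in PRMT3-KD, or 230, 233, 217 and 200 CPM. Both PRMT3-KD libraries were below both Ctrl libraries, by a log2 fold change of -0.15 (SE 0.0761, 95% interval -0.36 to 0.05, adjusted p = 0.221 in edgeR's QL test, Benjamini-Hochberg). This interval lay within 1.5-fold in either direction and did not exclude a small decrease. It rests on a spread shared by the 2 groups, which differed in spread, and DESeq2 gave a larger SE of 0.132.

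CARM1, also known as PRMT4, a coactivator-associated enzyme that methylates histone H3 at arginine 17, had 2916 and 2899 reads in Ctrl and 2586 and 3132 in PRMT3-KD. Its levels were 105, 105, 102 and 110 CPM, so that the PRMT3-KD libraries lay on either side of the Ctrl libraries. The fitted log2 change was 0.01 (SE 0.0772, 95% interval -0.20 to 0.22, adjusted p = 0.943, edgeR's QL test, Benjamini-Hochberg). With scaling by library totals alone the sign turned, to -0.02. YIPF2 lies on the opposite strand and shares 891 bases of exon with CARM1, and strand use in the counting was not given in the sources used here, so reads in that overlap cannot be told apart. YIPF2 itself had a log2 fold change of 0.05 (SE 0.0739).

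Of the type II enzymes, PRMT5, the main source of symmetric dimethylarginine, had 2651 and 2534 reads in Ctrl and 2996 and 2441 in PRMT3-KD. In CPM these were 95.7, 92.1, 118 and 85.9, and the PRMT3-KD libraries again lay on either side of Ctrl. They differed from each other by 0.457 on the log2 scale, the widest gap of any member, against 0.0546 between the Ctrl libraries. Its log2 fold change was 0.12 (SE 0.168, 95% interval -0.33 to 0.57, adjusted p = 0.649, edgeR's QL test, Benjamini-Hochberg). PRMT3-KD 1 alone was 0.33 above the Ctrl mean and PRMT3-KD 2 alone 0.13 below it, so the sign of the PRMT5 difference rested on the library. The antisense transcript PRMT5-AS1 shares 924 bases of exon with PRMT5 and was not analysed here.

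PRMT9, which methylates the splicing factor SF3B2, had the lowest counts of the members, 318 and 310 in Ctrl and 318 and 362 in PRMT3-KD. After scaling, both PRMT3-KD libraries (12.5 and 12.7 CPM) lay above both Ctrl libraries (11.5 and 11.3 CPM). The difference was small, with a log2 fold change of 0.15 (SE 0.109, 95% interval -0.14 to 0.44, adjusted p = 0.371, edgeR's QL test, Benjamini-Hochberg).

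The type III enzyme PRMT7 had 1209 and 1158 reads in Ctrl and 1217 and 1026 in PRMT3-KD, or 43.6, 42.1, 47.9 and 36.1 CPM. As for PRMT5, PRMT3-KD 1 was above and PRMT3-KD 2 below the Ctrl libraries, by 0.16 and -0.25 on the log2 scale. The log2 fold change was -0.03 (SE 0.157, 95% interval -0.45 to 0.39, adjusted p = 0.909, edgeR's QL test, Benjamini-Hochberg). SMPD3 on the opposite strand shares 1931 bases of exon with PRMT7 but had only 1 to 5 reads in any library.

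The 2 cofactors of PRMT5 among the members had fitted changes of opposite sign, and neither passed the threshold. WDR77, or MEP50, is the obligate partner that forms the PRMT5 octamer, and had 1548 and 1588 reads in Ctrl and 1440 and 1295 in PRMT3-KD. Its levels were 55.9, 57.7, 56.7 and 45.6 CPM: PRMT3-KD 1 lay within the Ctrl range and PRMT3-KD 2 below it. The fitted log2 change was -0.15 (SE 0.128, 95% interval -0.49 to 0.19, adjusted p = 0.443, edgeR's QL test, Benjamini-Hochberg). A noncoding gene on the same strand shares 673 bases of exon with WDR77, and ATP5PB on the opposite strand shares 90, so part of the WDR77 count is uncertain.

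CLNS1A encodes pICln, which brings Sm proteins to PRMT5 for methylation before spliceosomal snRNPs are assembled. It had 1381 and 1266 reads in Ctrl and 1507 and 1768 in PRMT3-KD, or 49.8, 46.0, 59.3 and 62.2 CPM. Both PRMT3-KD libraries were above both Ctrl libraries, and they differed by 0.0693 on the log2 scale against 0.115 between the Ctrl libraries. Its log2 fold change was 0.34 (SE 0.0849, 95% interval 0.12 to 0.57, unadjusted p = 0.0126, adjusted p = 0.0603 in edgeR's QL test, Benjamini-Hochberg), so CLNS1A missed the threshold. Its adjusted p lay between 0.0590 and 0.122 in the 8 other settings.

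Because WDR77 and PRMT5 were read in the same library, their ratio needs no scaling between libraries. Per kilobase of merged exons, WDR77 stood at 0.712 and 0.765 of the PRMT5 level in Ctrl and at 0.586 and 0.647 in PRMT3-KD. The ratio was lower in both PRMT3-KD libraries, 0.835 of its Ctrl mean, although neither gene's own change passed the threshold. An exact two-sided permutation test of this ratio gave p = 0.333, the smallest that 2 libraries against 2 allow. The ratio of CLNS1A to PRMT5 was 0.373 and 0.357 in Ctrl and 0.360 and 0.518 in PRMT3-KD, so that the groups overlapped. The adaptor RIOK1, which competes with pICln for PRMT5, had 28.8 and 27.3 CPM in Ctrl and 37.4 and 30.5 in PRMT3-KD (log2 fold change 0.28, SE 0.131, adjusted p = 0.206 in edgeR's QL test). COPRS, which directs PRMT5 to histones, had 36.9, 37.3, 50.7 and 37.8 CPM in the same order (log2 fold change 0.25, SE 0.161, adjusted p = 0.321 in edgeR's QL test).

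JMJD6, a 2-oxoglutarate-dependent oxygenase known as a lysyl hydroxylase of splicing factors and reported, with dispute, as an arginine demethylase, had 697 and 684 reads in Ctrl and 757 and 701 in PRMT3-KD. In CPM these were 25.2, 24.9, 29.8 and 24.7, with PRMT3-KD 1 alone above the Ctrl libraries. The log2 fold change was 0.12 (SE 0.125, 95% interval -0.21 to 0.46, adjusted p = 0.523, edgeR's QL test, Benjamini-Hochberg). METTL23, an arginine methyltransferase outside the PRMT family that starts head to head with JMJD6, had a log2 fold change of 0.07 (SE 0.125, adjusted p = 0.723 in edgeR's QL test).

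**Figure D2:**
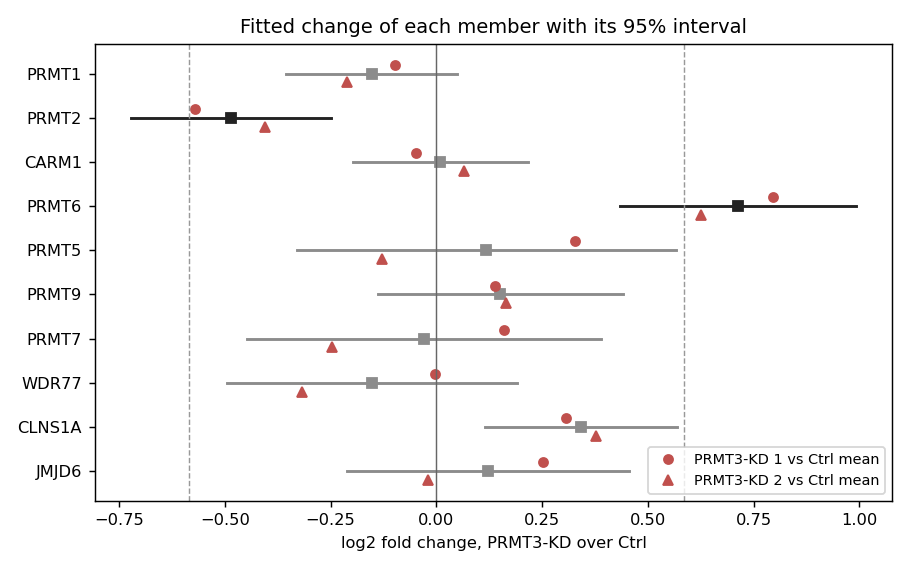
Log2 fold change of PRMT3-KD over Ctrl for each member (squares, with the 95% interval from edgeR as a line; black where the adjusted p was under 0.05) and the log2 difference of each PRMT3-KD library from the Ctrl mean (red circles, PRMT3-KD 1; red triangles, PRMT3-KD 2). Dashed lines mark 1.5-fold. Of the squares, only that of PRMT6 lies past a dashed line, at 0.71, and the 2 red points of PRMT5, PRMT7, CARM1 and JMJD6 fall on either side of 0.

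Of the 10 members, 8 had a 95% interval from edgeR that stayed within 1.5-fold in both directions, as did 4875 of the 13172 genes tested. These intervals take a spread shared by both groups, although the PRMT3-KD libraries differed more from each other. The upper ends for CLNS1A and PRMT5, 0.569 and 0.566, lay just inside 1.5-fold. For CLNS1A the SE was 0.0849 with edgeR and 0.154 with DESeq2, so the count of 8 depends on the fit. The median gap between the PRMT3-KD libraries was 0.168 on the log2 scale over the members and 0.238 over all genes, and between the Ctrl libraries 0.0368 and 0.0533. PRMT5, PRMT7, WDR77 and JMJD6 were each lower in PRMT3-KD 2 than in PRMT3-KD 1, by 0.272 to 0.457, and PRMT1 and PRMT6 by 0.115 and 0.171, while CARM1, PRMT2, CLNS1A and PRMT9 were higher there.

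**Figure D3:**
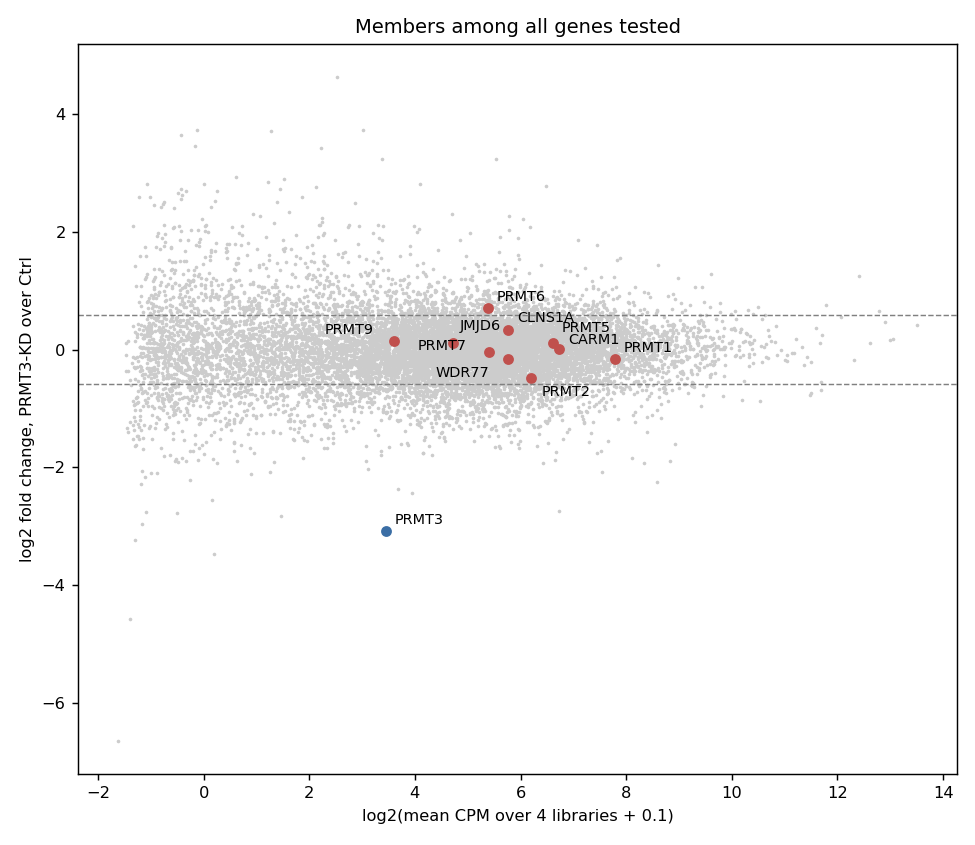
Log2 fold change of PRMT3-KD over Ctrl against log2(mean CPM over the 4 libraries + 0.1) for 13172 genes tested (grey), with the 10 members in red and PRMT3 in blue. Dashed lines mark 1.5-fold. Apart from PRMT6 at 0.71, the members lie between the dashed lines, and PRMT3 lies at -3.08.

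Levels can be compared between genes only per length, and the order depended in part on which length was used. With CPM per kilobase of all merged exons, the order of mean levels in Ctrl was PRMT1, PRMT5, CARM1, WDR77, PRMT2, CLNS1A, PRMT6, JMJD6, PRMT7 and PRMT9, from 48.3 down to 2.88, and the ranges of no 2 neighbours overlapped. In PRMT3-KD, CLNS1A (13.3) and PRMT6 (11.9) stood above PRMT2 (8.01), and the ranges of PRMT9 and PRMT7 overlapped at the bottom of the order. With the length of the canonical transcript in place of merged exons, PRMT1 led still further ahead (174 against 40.8 for PRMT5 in Ctrl). On that scale PRMT2 moved from the third place in Ctrl to the fourth in PRMT3-KD, PRMT6 from the eighth to the seventh, and the neighbours CLNS1A and JMJD6, and PRMT6 and PRMT7, did not differ beyond their ranges in Ctrl, nor did WDR77 and CLNS1A, or CLNS1A and PRMT6, in PRMT3-KD.

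Within the summed level of the 8 PRMT genes (counts per kilobase of merged exons, PRMT3 included), PRMT3 made up 2.72% and 2.77% in Ctrl and 0.420% and 0.244% in PRMT3-KD. The difference was -2.41 percentage points, with p = 0.333 in an exact two-sided permutation test, the smallest possible. PRMT3 was thus a minor share of the pool in Ctrl. The summed level of the other 7 genes was 126 and 125 in Ctrl and 131 and 118 in PRMT3-KD, in CPM per kilobase, and the groups overlapped (exact permutation p = 1). With canonical transcript lengths the sum was 311 and 310 in Ctrl and 307 and 281 in PRMT3-KD, both lower (exact permutation p = 0.333), so a difference in the sum was not settled by these lengths.

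Within the 7 other genes, PRMT6 was 5.99% and 5.56% of the sum in Ctrl and 9.60% and 9.44% in PRMT3-KD. PRMT2 had 8.96% ± 0.0490 (SD, n = 2) in Ctrl and 5.77% and 7.16% in PRMT3-KD, so that with merged exons PRMT6 had the larger share in both PRMT3-KD libraries and PRMT2 in both Ctrl libraries. This order depended on the length used: with canonical transcript lengths PRMT2 had 7.95% and 9.75% and PRMT6 6.78% and 6.59% in PRMT3-KD, and with no division by length PRMT2 had 9.43% and 11.5% and PRMT6 8.96% and 8.69%, so PRMT2 kept the larger share in all 4 libraries on both scales. PRMT1 was at 38.1% and 39.0% in Ctrl and at 34.5% and 35.2% in PRMT3-KD. Each of these shares had non-overlapping groups and p = 0.333 in the exact two-sided permutation test. As a ratio that is free of scaling between libraries, PRMT6 stood 1.82-fold higher against PRMT1, and 2.31-fold higher against PRMT2, in PRMT3-KD than in Ctrl. The type I genes together were 72.0% and 72.7% of the sum in Ctrl and 67.5% and 72.9% in PRMT3-KD, so their groups overlapped.

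**Figure D4:**
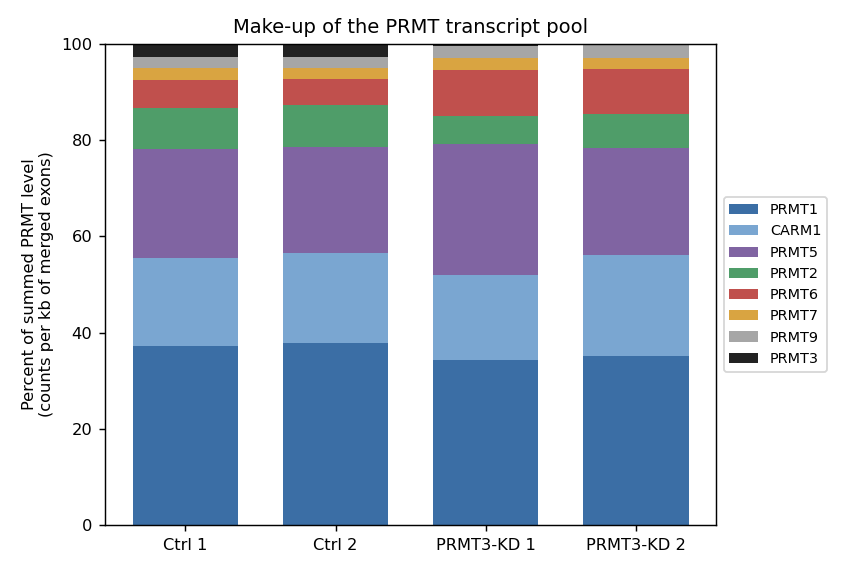
Percent of the summed PRMT level (counts per kilobase of merged exons) taken by each of 8 PRMT genes in the 4 libraries, stacked to 100 percent. The PRMT3 share (black) shrinks from about 2.75% to 0.332% on average, the PRMT6 share (red) widens and the PRMT2 share (green) narrows in both PRMT3-KD libraries.

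The 3 genes whose pattern over the 4 libraries lay closest to PRMT6, by Euclidean distance of log2 CPM centred on each gene's own mean, were TMEM81 (distance 0.0133), GPR176 (0.0438) and TTC1 (0.0455). For PRMT2 they were FAM126A (0.00318), SRP9 (0.00718) and EPM2AIP1 (0.0288). With only 4 libraries such closeness was not particular to the named genes: 25 of 13158 genes lay within 0.1 of PRMT6 and 148 within 0.1 of PRMT2.

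The wider arginine methylation pathway was followed in 9 lists of 89 genes, of which 84 were tested. Of these, 7 passed the threshold, or 8.33% against 10.9% of all genes, with 2 higher and 5 lower. The median log2 fold change of the 84 was -0.06 and that of all genes 0.01. No gene of the PRMT5 adaptors (2 tested), of the regulators that bind PRMT1 (3 tested), or of the other reported arginine methyltransferases (2 tested) passed in edgeR's test, 1 of these 7, the antiproliferative gene BTG1, had an unadjusted p under 0.05 and none an adjusted one, and DESeq2 called none of them.

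In the SAM cycle, which supplies the methyl donor, 1 of 17 genes passed. MTRR, the reductase that keeps methionine synthase active, fell from 54.6 and 56.2 CPM in Ctrl to 21.6 and 18.8 in PRMT3-KD, with a log2 fold change of -1.46 (SE 0.106, adjusted p = 0.0142, edgeR's QL test, Benjamini-Hochberg). It was the largest change among the called list genes that were lower. AHCY, of the same list, was also lower, with a log2 fold change of -0.48 (SE 0.0773, adjusted p = 0.0288, edgeR's QL test), under the 1.5-fold threshold. By the adjusted p alone, 2 of the 17 genes passed. MTAP, which clears methylthioadenosine, an inhibitor of PRMT5, was present at 84.6 and 83.8 CPM in Ctrl and 71.6 and 73.4 in PRMT3-KD (log2 fold change -0.22, SE 0.0697, adjusted p = 0.101 in edgeR's QL test). MTAP is deleted in many gliomas, and its reads were present in all 4 libraries here.

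Among 22 substrates known to carry methylarginine, 2 were lower past the threshold with edgeR (PABPN1 alone with DESeq2), and none was higher with either tool. Of those with a positive change, NCOA3 alone had an unadjusted p under 0.05. PABPN1, the nuclear poly(A)-binding protein, fell from 154 and 151 to 87.6 and 86.1 CPM (log2 fold change -0.81, SE 0.0679, adjusted p = 0.0143, edgeR's QL test), and it shares exons with the readthrough gene BCL2L2-PABPN1, so its count is uncertain. MED12, a Mediator subunit methylated by CARM1, fell from 59.5 and 62.1 to 40.0 and 40.9 CPM (log2 fold change -0.59, SE 0.0769, adjusted p = 0.0211, edgeR's QL test), at the edge of the 1.5-fold threshold. Of 17 genes of the SMN complex and the Sm proteins, 1 passed: GEMIN2, an SMN partner, fell from 10.5 and 9.42 to 6.34 and 5.53 CPM (log2 fold change -0.75, SE 0.155, adjusted p = 0.0429, edgeR's QL test).

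Of 6 genes for Tudor-domain readers of methylarginine or a partner of such a reader, 1 passed: TDRKH rose from 5.52 and 4.62 to 16.8 and 11.4 CPM (log2 fold change 1.48, SE 0.246, adjusted p = 0.0303, edgeR's QL test). Among 4 tested genes of free methylarginine breakdown and citrullination, 1 passed: DDAH1, which hydrolyses asymmetric dimethylarginine released from proteins, rose from 136 and 140 to 243 and 285 CPM (log2 fold change 0.93, SE 0.103, adjusted p = 0.0187, edgeR's QL test). DDAH2, of the same list, went the other way, from 44.8 and 44.7 to 32.0 and 33.8 CPM. Its log2 fold change was -0.44 (SE 0.0818, adjusted p = 0.0357, edgeR's QL test), under the 1.5-fold threshold. Of 11 JmjC hydroxylases and JMJD6 partners, 1 passed: HIF1AN, the asparaginyl hydroxylase that restrains HIF1A, fell from 92.4 and 92.2 to 51.8 and 58.2 CPM (log2 fold change -0.75, SE 0.0892, adjusted p = 0.0198, edgeR's QL test). Over the other 8 settings 6 to 8 list genes were called, with CTH and SRM added by DESeq2 and limma-voom and SRM by the replicate block. MED12 was lost with DESeq2, with DESeq2's size factors and with upper-quartile scaling, and GEMIN2 with library totals, the replicate block and limma-voom. With 1 library left out, the count of list genes called moved with the count over all genes, as given in the closing section.

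**Figure D5:**
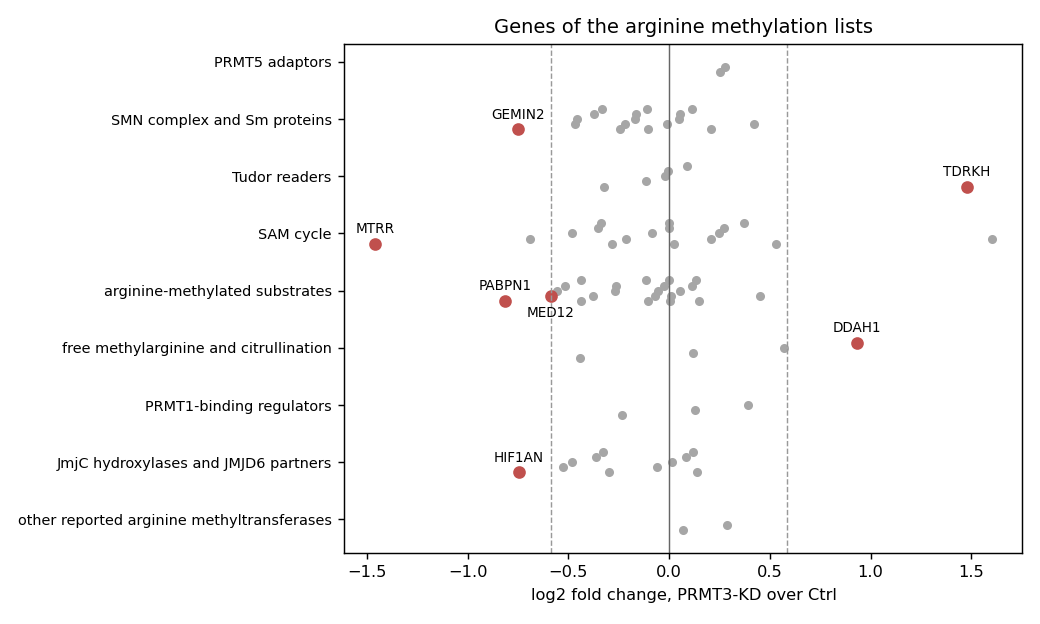
Log2 fold change of PRMT3-KD over Ctrl for 84 tested genes in 9 lists of the arginine methylation pathway, 1 point per gene (vertical offsets within a list only separate points). Red, named points passed the threshold, 2 higher and 5 lower, and dashed lines mark 1.5-fold. The grey point farthest to the right is CTH of the SAM cycle, whose adjusted p in edgeR's QL test was 0.0877.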

How the data were processed

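Per the labels and the study's methods, the authors aligned reads to hg19 with TopHat, made the deposited unnormalized read counts per gene with Cufflinks and tested them with DESeq2; CASAVA is also named in the submitters' processing notes. Versions, annotation and strand setting were not given in the sources used here. From 15576 entries 1 duplicate was removed. All 4 libraries were fitted together with edgeR 4.0.16 in R 4.3.3 (filterByExpr, minimum count 10, TMM, glmQLFit and glmQLFTest), with Benjamini-Hochberg adjustment over 13172 genes. A gene passed with an adjusted p under 0.05 and over 1.5-fold. CPM are counts scaled by TMM library sizes, and values per length used merged exons from GENCODE 44 (15560 identifiers, 99.9%, matched). Alternatives were DESeq2 1.42.0, 3 other scalings, 2 other filters, a replicate block, limma-voom (limma 3.58.1) with group weights and leaving out each library. The procedure was tested on simulated data. The members and the lists were chosen with earlier results of these data known. Named genes were the members, PRMT3, every list gene past the threshold (at most 6 per list), MTAP, RIOK1, COPRS, and the 3 nearest genes in pattern; CHI3L1, KRT18 and the like are markers. METTL23, CTH, SRM, BTG1, NCOA3, DDAH2, AHCY and genes overlapping a member were named after their values were seen. PRMT8, AGXT2, RIOX1 and the markers OLIG2, RBFOX3, AIF1, PECAM1 and EPCAM were not analysed here. Depth limits precision through counting error only; the spread of the PRMT3-KD libraries was larger.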

Additional observations from a re-analysis of the deposited data

How the results depend on the processing

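PRMT3 kept its direction and PRMT6 its direction and call in 8 of 8 settings of test, scaling, filter, replicate block and group weights. Leaving out each library gave a PRMT3 log2 fold change from -3.61 to -2.68, and its adjusted p was 0.0764 or 0.0604 without Ctrl 1 or Ctrl 2. The members past the threshold then ranged from 0 to 1 and the list genes from 0 to 17, while genes called over the whole table ranged from 0 to 3066 beside 1441 with all libraries. The 2 fits without a Ctrl library take their spread from the PRMT3-KD pair, and those without a PRMT3-KD library from the Ctrl pair. Without a fold threshold, 2 members and 15 list genes passed, the list genes with 2 higher and 13 lower. Signs turned for CARM1 with library totals (-0.0231) and, when a library was left out, for CARM1 (-0.0534 without PRMT3-KD 2, to 0.0683), PRMT5 (-0.126 without PRMT3-KD 1, to 0.324), PRMT7 (0.156 without PRMT3-KD 2, down to -0.245) and JMJD6 (-0.0172 without PRMT3-KD 1, to 0.248), and the cause was not tested. The PRMT3 share of the summed level differed by -2.09 percentage points with canonical lengths and -2.73 without lengths, and by -2.50 to -2.32 with 1 library left out. The labels give both groups replicate numbers 1 and 2, but the within-group differences correlated at 0.0222 across 13172 genes, and nothing says that the numbers mark shared cultures. With the replicate block, 1464 genes, 1 member and 7 list genes passed, PRMT6 had a log2 fold change of 0.71 and PRMT3 of -3.11. The loss of PRMT2 at an adjusted p under 0.05 came with that block. With 2 libraries per group, small changes such as that of CLNS1A were not resolved.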
